A study of Meleagris gallopavo with 24 samples.

Results

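The liver and the heart of Sal-exposed turkeys (Meleagris gallopavo) were compared with each other, with 6 libraries of liver and 6 of heart chosen by tissue and treatment from the sample labels, 12 of the 24 libraries of the series. Salinomycin (Sal) is an ionophore given in poultry feed against coccidia. The female birds of the Sal-exposed group received 21 mg Sal per kg feed, an estimated 0.9 mg per kg body weight a day, in weeks 12 to 13 after Sal-free diets, were kept at 4 birds per pen, and were sampled in week 13. Control birds of the same age, kept alike on Sal-free feed, gave 6 heart libraries and 6 liver libraries, of which liver control 3 was left out for its low number of reads, so that 11 control libraries enter where a value is set beside the controls. The heart tissue was homogenised in a separate reagent before RNA isolation and the liver directly in the lysis buffer of the kit, so the tissue and the way of homogenising cannot be told apart in this comparison. Which part of the heart was taken is not stated.

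The heart wall consists mainly of cardiomyocytes, whose force comes from sarcomeres, the repeating units in which myosin pulls on actin when calcium released from the sarcoplasmic reticulum binds to troponin. The liver consists mainly of hepatocytes, which secrete most plasma proteins, keep blood glucose and cholesterol in balance and break down amino acids. Endothelium, fibroblasts, macrophages and blood are found in both organs, and the liver has its own sinusoidal endothelium, resident macrophages (Kupffer cells) and bile duct cells.

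The Sal-exposed heart libraries held 23372118 to 35979378 counts and the Sal-exposed liver libraries 21028603 to 31305782, with 10719 to 11221 and 10918 to 11350 genes that had a count. Levels are given on the usual CPM scale, as the count of a gene relative to the effective size of its library. The effective size is the library total times a scaling factor fitted over the 23 libraries. It can lie far from the total, so a CPM value is not the share of a library taken by a gene. The levels are not divided by gene length, so they are compared between libraries and not between genes. The share of counts from mitochondrial genes was 48.3% to 86.9% in the 6 hearts, with a median of 63.8%, and 16.7% to 46.2% in the 6 livers, with a median of 28.1%. Every heart lay above every liver, with a difference of 38.2 percentage points (two-sided exact permutation test, p = 0.00216, the smallest that 6 against 6 libraries can give). Heart Sal 1 stood apart from the other hearts in several contractile genes, and not in these alone. Its sum over a list of reference genes was 45626 CPM, against 4058 to 11266 in the other 5 hearts. Its sums of endothelial, fibroblast and erythroid markers were the lowest of the 6. Its counts for 24 sarcomere and Z-disc genes summed to 100429 CPM, against 20010 to 35369 in the other 5 hearts, and its mitochondrial share was the lowest of the 6. The birds of a group were separate animals, and p-values measure the spread between birds of 1 feeding trial. By the methods, heart and liver were dissected from the 6 birds taken per group, so the tissues share birds. Which heart and liver came from 1 bird is not stated, and the fits treat the libraries as independent.

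The first question was which genes differed between the tissues of Sal-exposed birds. A gene was called where the edgeR adjusted p was 0.05 or less and the log2 fold change was 1 or more in either direction. This held for 5060 of the 10621 genes tested (47.6%), of which 2515 (23.7%) were higher in liver and 2545 (24%) higher in heart. In the control birds 4755 of 10772 genes were called (44.1%). The ranges of the 6 livers and the 6 hearts did not overlap for 4287 genes (40.4%). Counts of called members below are read against these shares, and the size of the difference is given beside them. The difference was at least 8 on the log2 scale for 277 genes, 191 higher in liver and 86 higher in heart, and in all 277 the livers and hearts had separate ranges. It lay between 1 and 2 for 2451 of the called genes. Positive log2 fold changes stand for higher levels in liver throughout, negative ones for higher levels in heart.

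In the Sal-exposed birds the genes of the contractile apparatus were separated by tissue with no exception among the tested members, as were, with a single one, the plasma protein genes of the hepatocyte. Of 36 sarcomere and Z-disc genes listed, 24 were in the table and 23 were tested, and all 23 were higher in heart, with a median log2 fold change of -9.04 and no overlap of the groups. Of 57 plasma protein genes listed, 46 were in the table and tested, and 45 were higher in liver, with a median of 10.56. The median over all genes tested was -0.03. Other lists held genes that stayed close between the tissues, above all the list of muscle energy supply, in which 7 of 13 tested members were higher in heart and 6 were not called. Without heart Sal 1 the numbers of called members of these 3 lists were the same, and the sarcomere median was -9.01.

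**Figure D1:**
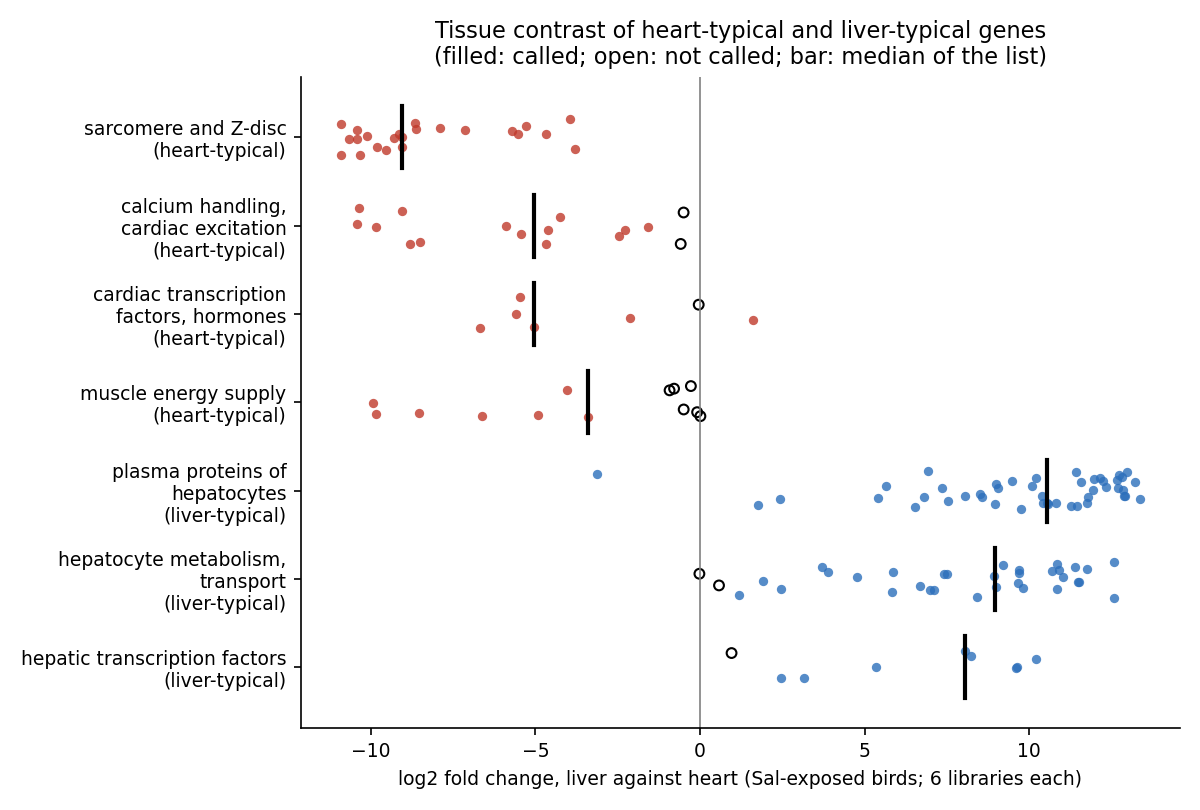
Log2 fold change of liver against heart (x axis) for each tested member of 7 lists of tissue-typical genes (rows) in Sal-exposed birds, 6 libraries per tissue, with filled points for called members, open points for members not called and a bar for the median. The 23 sarcomere and Z-disc members all lie below 0, 45 of the 46 plasma protein members lie above it, and of the 12 open points, which gather near 0, 6 are in the list of muscle energy supply.

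MYL2 encodes the regulatory light chain of ventricular myosin (ENSMGAG00000005114, chromosome 17, 6106147 to 6110064 on Turkey_5.1). Its level ran from 3496 to 33600 CPM in heart, with a median of 5741, and from 1.66 to 10.7 CPM in liver, with a median of 5.07. Heart Sal 1 held the highest value, 10828 CPM was the next, and the tissues did not overlap. The log2 fold change was -10.90 (SE 0.97, adjusted p = 1.16e-07, edgeR), and -10.06 without heart Sal 1. MYL3, the essential light chain of the same myosin, had a log2 fold change of -10.91 (SE 1.05), with 3238 to 37705 CPM in heart and 1.83 to 10.03 CPM in liver.

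The troponin subunits on the thin filament followed the same order. TNNT2, which anchors the troponin complex to tropomyosin, had 2094 to 6307 CPM in heart (median 3292) and 0.743 to 6.41 CPM in liver (median 2.21), a log2 fold change of -10.34 (SE 0.74, adjusted p = 8.91e-09, edgeR). TNNC1, the calcium-binding subunit, had 1816 to 9650 CPM in heart and 0.520 to 7.06 CPM in liver, a log2 fold change of -10.42 (SE 0.88). Neither gene had a liver within a factor of 100 of the lowest heart. MYOZ2, a Z-disc protein that binds calcineurin, had a log2 fold change of -10.67 (SE 0.86), with 824 to 4809 CPM in heart and 0.314 to 2.50 CPM in liver. MYL2, MYL3, MYOZ2 and ASB18, an ankyrin repeat protein, were among the 5 named genes with the largest differences toward heart at a heart mean of at least 100 CPM. ASB18 had 109 to 262 CPM in heart and 0 to 0.202 CPM in liver (log2 fold change -10.50, SE 0.58).

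Members of the sarcomere list did not all differ to the same extent. LDB3, which holds the Z-disc together, had 281 to 567 CPM in heart (median 407) and 20.3 to 32.0 CPM in liver (median 27.2). These liver values form a narrow band. Their mean was 6.45% of the heart mean, the highest of the 17 listed sarcomere and Z-disc genes with at least 100 CPM in heart, with PDLIM5 at 2.56%. The log2 fold change of LDB3 was -3.96 (SE 0.26, adjusted p = 3.27e-09, edgeR). PDLIM5, a PDZ and LIM domain protein of the Z-disc that is also made outside muscle, had 264 to 333 CPM in heart and 4.20 to 11.5 CPM in liver, a log2 fold change of -5.28 (SE 0.29). MYOM1, an M-band protein, had 219 to 1057 CPM in heart and 8.35 to 23.8 CPM in liver, a log2 fold change of -5.52 (SE 0.45). The model named TTN here covers a part of the RefSeq gene and gave a log2 fold change of -9.29.

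Of 28 genes of calcium handling and cardiac excitation, 16 were in the table and tested, 14 were higher in heart and 2 were not called, with a median log2 fold change of -5.05. With the liver level of PLN, which had no count there, set to 3 counts per library, the median was -4.69. That setting was scaled by library totals and not by effective sizes, so it is approximate. ATP2A2, the calcium pump that refills the sarcoplasmic reticulum, had 548 to 1045 CPM in heart (median 731) and 24.1 to 47.9 CPM in liver (median 27.6), a log2 fold change of -4.67 (SE 0.31, adjusted p = 4.15e-09, edgeR). The pump is known to be made in many cell types, and liver Sal 6 stood above the next liver, which had 28.9 CPM. CASQ2, which stores calcium in the cardiac sarcoplasmic reticulum, had 281 to 424 CPM in heart and 0.124 to 0.726 CPM in liver, a log2 fold change of -9.86 (SE 0.48). RYR2, the calcium release channel that opens during each beat, had 60.7 to 249 CPM in heart and 0.0495 to 0.646 CPM in liver, a log2 fold change of -8.80 (SE 0.57).

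Membrane proteins of the cardiomyocyte differed to unequal extents. CAV3, the muscle caveolin, had 68.6 to 483 CPM in heart and 0 to 0.238 CPM in liver, a log2 fold change of -10.43 (SE 0.80). BVES and POPDC2, cyclic AMP-binding Popeye proteins, had log2 fold changes of -10.36 (SE 0.71) and -8.49 (SE 0.36). GJA5, a gap junction protein of atrial and conducting tissue in mammals, had 11.6 to 25.5 CPM in heart and 0.260 to 1.27 CPM in liver (log2 fold change -4.6, SE 0.35). PLN, the inhibitor of the calcium pump, had no count in any of the 6 livers and 3.14 CPM on average in heart, and was called higher in heart. The 2 members that were not called were potassium channels at low levels in both tissues, KCNH2 with 1.15 to 6.23 CPM in heart and 1.88 to 3.59 CPM in liver, and KCNJ2 with 0 to 2.39 CPM and 0.161 to 1.26 CPM.

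Of 14 cardiac transcription factors and hormones, 7 were in the table and tested, 5 were higher in heart, 1 was higher in liver and 1 was not called. NKX2-5, the homeobox factor that marks the cardiac lineage, had no count in any liver and 3.24 CPM on average in heart, and was called higher in heart. TBX20, a T-box factor of the developing and adult heart, had 13.5 to 36.7 CPM in heart and 0 to 0.314 CPM in liver (log2 fold change -6.70, SE 0.46), and MYOCD, a coactivator of smooth and cardiac muscle genes, had 9.52 to 58.2 CPM and 0.323 to 2.02 CPM (log2 fold change -5.05, SE 0.50). GATA6, a zinc finger factor of heart, gut and liver development, went the other way. Its level was 10.01 to 15.4 CPM in heart (median 13.4) and 36.2 to 42.9 CPM in liver (median 41.3), and the narrow ranges did not overlap (log2 fold change 1.6, SE 0.16, adjusted p = 5.41e-07, edgeR). MEF2C, a factor of muscle and endothelium, had 10.9 to 34.8 CPM in heart and 14.7 to 28.8 CPM in liver, ranges that overlapped, with a log2 fold change of -0.04 (SE 0.30). MEF2A was called higher in heart (log2 fold change -2.13, SE 0.52), although its heart range of 5.15 to 83.2 CPM overlapped the liver range of 4.6 to 14.8 CPM.

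Genes of muscle energy supply ranged from near absent in liver to overlapping levels in both tissues. CKMT2, the mitochondrial creatine kinase of striated muscle, had 81.2 to 272 CPM in heart and 0 to 0.444 CPM in liver (log2 fold change -9.94, SE 0.72). SLC25A4, the ADP/ATP carrier of muscle mitochondria, had 1048 to 5298 CPM in heart and 14.1 to 36.7 CPM in liver (log2 fold change -6.63, SE 0.54), with a gene model that overlaps another one. TRIM63 and TRIM55, ubiquitin ligases of the sarcomere, had log2 fold changes of -8.53 (SE 0.43) and -9.85 (SE 0.45). FBXO32, another ubiquitin ligase of muscle, LPL and GYG1 lay in between, with 5.62%, 3.29% and 9.28% of their heart level in liver. At the other end LDHB, the lactate dehydrogenase subunit that favours pyruvate, had 681 to 3838 CPM in heart (median 1363) and 1221 to 2148 CPM in liver (median 1607), with every liver inside the heart range and a log2 fold change of -0.09 (SE 0.42, adjusted p = 0.870, edgeR).

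Genes of fuel choice in this list also differed little between the tissues under Sal. CD36, a fatty acid translocase, had 141 to 285 CPM in heart and 117 to 210 CPM in liver (log2 fold change -0.50, SE 0.24). PDK4, which shuts off pyruvate oxidation in fasting, had 121 to 269 CPM and 66.8 to 183 CPM (log2 fold change -0.79, SE 0.29, adjusted p = 0.0289, edgeR). ACADL, a mitochondrial acyl-CoA dehydrogenase, had 400 to 727 CPM in heart and 228 to 381 CPM in liver, ranges that did not overlap, and with a log2 fold change of -0.92 (SE 0.26, adjusted p = 0.00646, edgeR) it missed only the fold threshold. The regulators ESRRG and PPARGC1A, which drive mitochondrial genes, had log2 fold changes of 0.01 (SE 0.35) and -0.28 (SE 0.34) with overlapping ranges.

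**Figure D2:**
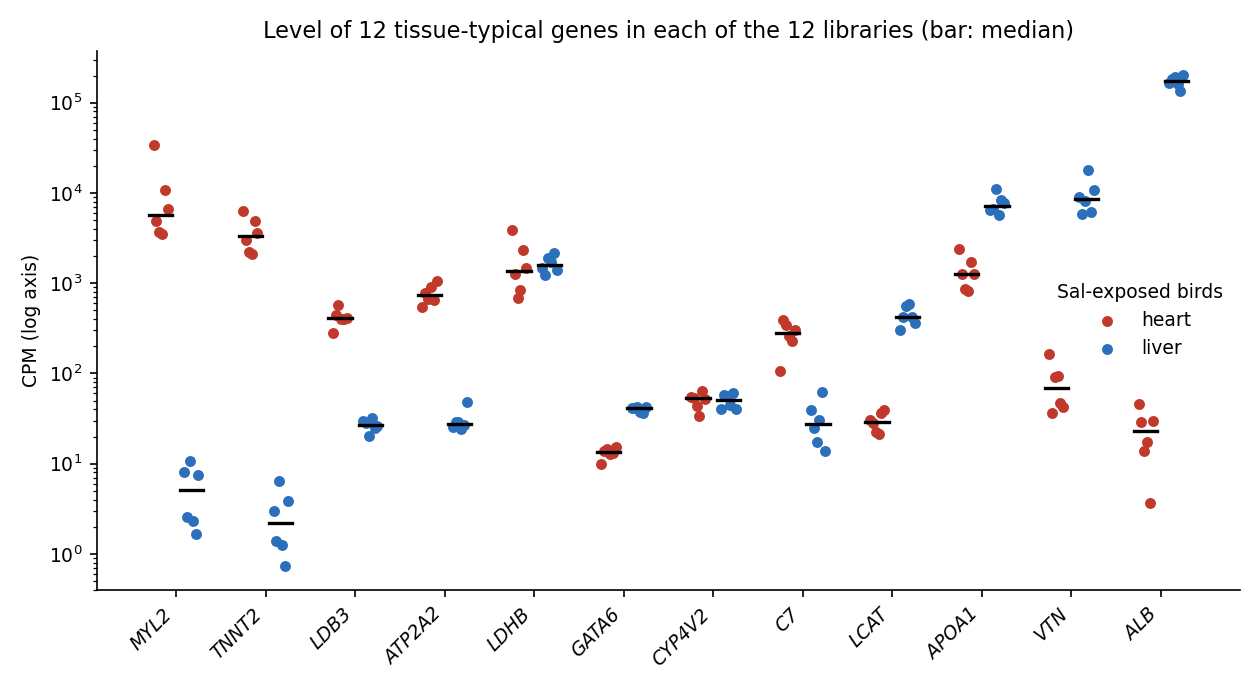
Level in CPM (log axis) of 12 tissue-typical genes in each of the 6 heart and 6 liver libraries of Sal-exposed birds, with a bar at the median of each tissue. MYL2 and TNNT2 in liver lie at or under 10.7 CPM, ALB lies at or above 135397 CPM in every liver, and LDHB and CYP4V2 overlap between the tissues.

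On the liver side, ALB, which encodes albumin (ENSMGAG00000010180, chromosome 4, 16156341 to 16335646), had 135397 to 201353 CPM in liver (median 174150) and 3.64 to 46.3 CPM in heart (median 23.2). Its gene model overlaps 2 others. The livers lay close together, the hearts spread more widely, and the log2 fold change was 12.84 (SE 0.86, adjusted p = 4.13e-09, edgeR). GC, the vitamin D-binding protein, had 3996 to 7719 CPM in liver and 0.0350 to 1.09 CPM in heart, with the largest log2 fold change of the 10621 genes in this fit (13.36, SE 0.83). The 3 fibrinogen chains, which form the clot, lie next to each other on chromosome 4, and FGA, FGB and FGG had log2 fold changes of 13.23 (SE 0.90), 12.98 (SE 0.87) and 12.91 (SE 0.88). The gene model of FGG overlaps another. FGA had 5439 to 22326 CPM in liver, with liver Sal 4 highest and the other 5 at or under 8790 CPM, and 0.196 to 1.94 CPM in heart. HRG, a plasma glycoprotein that binds heparin, had 2093 to 16667 CPM in liver and 0.0700 to 1.39 CPM in heart (log2 fold change 12.89, SE 1.01).

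Liver Sal 4 was also highest for TF, the iron carrier transferrin, with 32816 CPM against 4227 to 10808 CPM in the other livers. The hearts held 11.8 to 16.4 CPM of TF, a narrow range, and the log2 fold change was 9.76 (SE 0.68), or 9.13 without liver Sal 4. VTN, the adhesive plasma protein vitronectin, had 5916 to 18012 CPM in liver and 36.3 to 166 CPM in heart (log2 fold change 6.92, SE 0.59), with a gene model that overlaps another. C7, a component of the membrane attack complex, was the plasma protein gene with the opposite order. It had 106 to 392.1 CPM in heart (median 283) and 13.9 to 61.6 CPM in liver (median 27.6), with no overlap, and a log2 fold change of -3.13 (SE 0.41, adjusted p = 7.89e-06, edgeR).

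Of 55 genes of hepatocyte metabolism and transport, 34 were in the table and tested, 32 were higher in liver and 2 were not called, with a median log2 fold change of 8.95. HPD and TDO2, enzymes of tyrosine and tryptophan breakdown, had log2 fold changes of 12.57 (SE 0.72) and 12.59 (SE 0.47). TDO2 had 456 to 960 CPM in liver and 0 to 0.0768 CPM in heart, so the hearts held next to none of it. AGXT, HAO1 and ELOVL2 had no count in any heart and were called higher in liver.

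The exceptions in this list were GLUL and CYP4V2. GLUL, glutamine synthetase, had 109 to 303 CPM in liver and 75.2 to 178 CPM in heart, with overlap (log2 fold change 0.58, SE 0.31). CYP4V2, a fatty acid hydroxylase, had 40.2 to 61.1 CPM in liver and 33.9 to 63.9 CPM in heart, with all livers inside the heart range (log2 fold change -0.02, SE 0.20). PCK1, which starts gluconeogenesis, was called with a log2 fold change of 1.90 (SE 0.66, adjusted p = 0.0221, edgeR) at very low levels, 0.483 to 3.09 CPM in liver and 0 to 1.09 CPM in heart. The ranges overlapped, and without liver Sal 1 the gene was not called (log2 fold change 1.47, adjusted p = 0.0672, edgeR).

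Of 19 hepatic transcription factors, 9 were in the table and tested and 8 were higher in liver, with a median log2 fold change of 8.06. HNF4A, a nuclear receptor at the top of the hepatocyte programme, had 23.6 to 41.3 CPM in liver and 0 to 0.147 CPM in heart (log2 fold change 8.06, SE 0.40), and NR1H4, the bile acid receptor, had 46.0 to 113 CPM and 0 to 0.0629 CPM (log2 fold change 9.63, SE 0.39). MLXIPL, the carbohydrate response factor ChREBP, had no count in any heart and 46.4 to 129 CPM in liver. PPARA, the fatty acid receptor of both organs, differed less, with 21.9 to 33.7 CPM in liver and 3.58 to 6.65 CPM in heart (log2 fold change 2.47, SE 0.21). PROX1, a homeobox factor of hepatocytes and lymphatic vessels, had overlapping ranges of 13.4 to 28.7 CPM and 2.18 to 20.6 CPM, and a log2 fold change of 0.96 (SE 0.39, adjusted p = 0.0443, edgeR) just under the fold threshold.

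Genes were set side by side in pairs, the first listed on the heart side and the second on the liver side, 9 pairs described with both members tested. The listing does not make each second gene a liver form, and CKB and FHL1 were listed second though higher in heart. In 4 pairs the first gene was called higher in heart and the second higher in liver. SLC2A1, the widespread glucose carrier, had 8.67 to 27.4 CPM in heart and 0.664 to 2.11 CPM in liver (log2 fold change -3.56, SE 0.38), whereas SLC2A2, the hepatocyte carrier, had 0 to 0.303 CPM and 323 to 457 CPM (log2 fold change 10.84, SE 0.55). LPL, which frees fatty acids from circulating lipoproteins, and LIPC, its hepatic counterpart, had log2 fold changes of -4.91 (SE 0.67) and 10.69 (SE 0.50). The transaminases GOT1 and GPT2, which are not paralogs, had -1.97 (SE 0.32) and 8.04 (SE 0.49).

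The glycogenins, which prime glycogen synthesis, differed in another respect. GYG1 had 24.2 to 50.2 CPM in heart and 2.80 to 3.94 CPM in liver (log2 fold change -3.41, SE 0.23), and GYG2 had 1.5 to 6.79 CPM in heart and 18.2 to 38.2 CPM in liver (log2 fold change 2.85, SE 0.39). GYG2 was the only gene of the table that reached 1 CPM in all 12 Sal-exposed libraries and stayed under 0.3 CPM in all 11 control libraries, a property noticed after its values were seen.

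In 4 pairs both members were called in the same direction. The acyl-CoA synthetases ACSL1 and ACSL5 were both higher in liver, with log2 fold changes of 2.46 (SE 0.27) and 5.90 (SE 0.35). The creatine kinases CKMT2 and CKB were both higher in heart, with -9.94 and -7.77 (SE 0.55), and so were the LIM domain proteins FHL2 and FHL1, with -9.14 (SE 0.42) and -4.35 (SE 0.25). The calcium pumps ATP2A2 and ATP2A3 were also both called higher in heart, ATP2A3 with 1.52 to 9.06 CPM in heart and 1.08 to 4.21 CPM in liver at a log2 fold change of only -1.10 (SE 0.39). ATP2A3 was not called under 5 of the 18 alternatives run, among them without heart Sal 2, heart Sal 6 or liver Sal 6 and with library size alone (-0.86). SLC25A6, the other ADP/ATP carrier of the table, was not called (log2 fold change 0.43, SE 0.43), with 277 to 1598 CPM in heart and 630 to 1243 CPM in liver.

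The second question was which tissue-typical genes were found in the other tissue. A gene was taken as present where all 6 libraries of the other tissue reached 1 CPM. Presence in this sense is a level of reads in the libraries, and whether the cells of that tissue made the transcripts was not tested. Of 60 heart-typical genes in the table, 21 were present in the livers of Sal-exposed birds, and of 89 liver-typical genes, 17 were present in the hearts. In the control birds the same counts were 16 and 19, with 5 livers and 6 hearts. For comparison, of all genes called higher in heart at a mean of at least 100 CPM there, 284 of 340 (83.5%) were present in liver, and of those called higher in liver, 176 of 329 (53.5%) were present in heart. The lists have no such minimum and include members not called. Only 32 heart-typical and 62 liver-typical members reached 100 CPM in their own tissue, so the sets are unlike and their shares are not directly comparable. At a minimum of 10 CPM the numbers under Sal were 10 and 9. With levels scaled to the counts of nuclear genes alone, 25 and 23 were present under Sal and 17 and 32 in controls.

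The heart-typical genes present in liver were 9 of 13 for muscle energy supply, 5 of 24 for sarcomere and Z-disc (MYL2, MYL3, MYOM1, LDB3 and PDLIM5), 4 of 16 for calcium handling (ATP2A2, KCNH2, CAMK2D and ANK2) and 3 of 7 for transcription factors (GATA6, MEF2A and MEF2C). ANK2, an ankyrin that anchors ion transporters, had 6.62 to 14 CPM in liver and 5.94 to 48.0 CPM in heart, and CAMK2D, a calcium-dependent kinase, had 2.26 to 5.31 CPM and 6.97 to 26.3 CPM. The gene models of both overlap another model. The liver-typical genes present in heart were 9 of 46 plasma protein genes (among them ALB, APOA1, TF, SERPIND1, SERPING1, C7, ITIH2 and VTN), 6 of 34 for metabolism (among them GLUL, ACOX2, CYP4V2, LCAT and ACSBG2) and 2 of 9 transcription factors (PROX1 and PPARA).

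Presence at 1 CPM depends on how high a gene is in its own tissue, so the level in the other tissue was also expressed as a percent of the mean level in the own tissue, for members with at least 100 CPM there. The 32 heart-typical genes reached a median of 0.136% of their heart level in liver, with 13 under 0.1%, 9 from 0.1% to 1%, 6 from 1% to 10% and 4 at 10% or more. The 62 liver-typical genes reached a median of 0.0303% in heart, with 42 under 0.1%, 15 from 0.1% to 1%, 3 from 1% to 10% and 2 at 10% or more. LDHB with 94.5%, CD36 with 71.1%, PDK4 with 58.1% and ACADL with 52.9% were the 4 highest heart-typical genes, all of fuel use. The next were LDB3 with 6.45%, ATP2A2 with 3.94%, LPL with 3.29%, PDLIM5 with 2.56% and MYOM1 with 2.18%, while MYL2 and MYL3 stood at 0.0520% and 0.0518%. The divisor is a mean, and heart Sal 1, outlying for MYL2 (33600 CPM) and MYL3 (37705 CPM), raised it for both. By the medians given above, LDHB was higher in liver than in heart. In control birds the liver mean was 221% of the heart mean for LDHB, 51.5% for CD36, 18.2% for PDK4 and 106% for ACADL.

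Among the liver-typical genes, GLUL stood at 66.8% and APOA1 at 18.3% of the liver level in heart. LCAT stood at 6.65% and ACOX2 at 1.75%, and F10, VTN and AADAC lay just under 1%. ALB and the fibrinogen genes, which encode abundant plasma proteins, stood between 0.00957% and 0.0135%, near the low end. APOA1, the main protein of high-density lipoprotein (ENSMGAG00000003169, chromosome 26, 5175929 to 5177267), had 827 to 2420 CPM in heart (median 1274) and 5671 to 10989 CPM in liver (median 7167). The gene is known to be made outside the liver in birds, the groups did not overlap, and its log2 fold change of 2.45 (SE 0.39, adjusted p = 5.21e-05, edgeR) was small for a plasma protein. LCAT, the plasma enzyme that esterifies cholesterol on the same lipoprotein, had 21.1 to 38.9 CPM in heart and 304 to 587 CPM in liver (log2 fold change 3.9, SE 0.29).

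**Figure D3:**
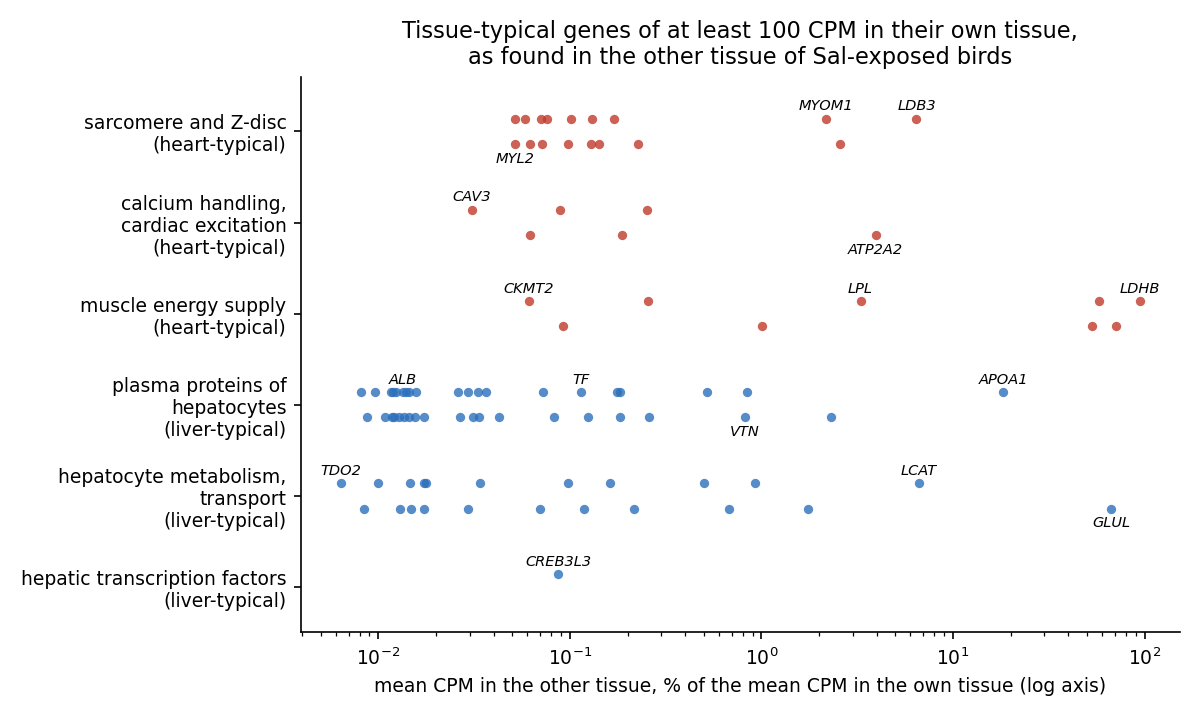
Mean CPM in the other tissue as a percent of the mean CPM in the own tissue (x axis, log scale) for each of 94 tissue-typical genes with at least 100 CPM in the own tissue of Sal-exposed birds, by list (rows). Most points lie under 1%. GLUL at 66.8% and APOA1 at 18.3% lie far to the right of their lists, and LDHB at 94.5% is the highest of 4 members of muscle energy supply at 10% or more.

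The low levels of contractile genes in liver differed between libraries. Over the 17 sarcomere and Z-disc genes with at least 100 CPM in heart, the median level was 0.171% of the heart level in liver Sal 1, 0.0583% in liver 2, 0.168% in liver 3, 0.0371% in liver 4, 0.0195% in liver 5 and 0.106% in liver 6. Livers 1 and 3 were highest and liver 5 was lowest. In the 5 control livers the same median, on the same scale, ran from 0% to 0.0357% with a middle value of 0.000463%, so that the highest control liver lay above the lowest Sal-exposed liver and the other 4 lay below all Sal-exposed livers. MYL2 showed the same order with no overlap, 1.66 to 10.7 CPM in the 6 Sal-exposed livers and 0 to 0.636 CPM in the 5 control livers. Every Sal-exposed liver also had at least 10918 genes with a count, while 4 of the 5 control livers used had 9268 to 10611 and 1 had 11055, and the part of this in the difference was not tested.

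The median level of plasma protein genes in heart showed no such order. Over the 39 members with at least 100 CPM in liver, the median was 0.0297% in heart Sal 1, 0.0329% in heart 2, 0.00807% in heart 3, 0.0147% in heart 4, 0.0108% in heart 5 and 0.0297% in heart 6, and the 6 control hearts ran from 0.0128% to 0.0405%. The ranges overlapped. The summed level of the list did not overlap, with 1309 to 2803 CPM in the Sal-exposed hearts and 589 to 1020 CPM in the control hearts. Without APOA1 it was 338 to 550 CPM and 320 to 508 CPM, with overlap.

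**Figure D4:**
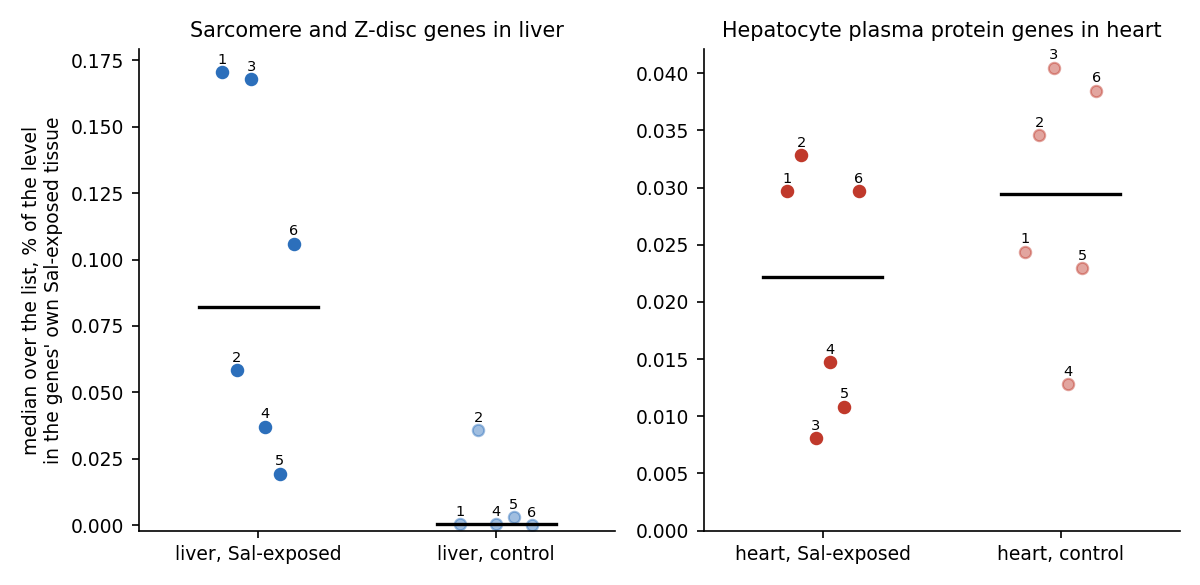
Median level of sarcomere and Z-disc genes in each liver library (left) and of hepatocyte plasma protein genes in each heart library (right), as a percent of their level in the own tissue of Sal-exposed birds (y axes, different scales), for Sal-exposed and control birds, with a bar at the median and the library number beside each point. Of the control livers 4 lie near 0 and 1 at 0.0357%, against 0.0195% to 0.171% with Sal, whereas the hearts of both groups overlap.

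The third question was whether the tissue contrast of Sal-exposed birds differed from that of control birds. The difference was called for 1837 of 11158 genes (16.5%), 1056 (9.46%) with liver relative to heart higher under Sal and 781 (7%) with it lower. This split depended on the scaling and on single libraries. With library size alone it was 1309 against 93, and the median difference over all genes moved from 0.05 to 0.57 on the log2 scale. The tissue contrast itself moved from a median of -0.03 to 0.29, with 3070 genes higher in liver and 1799 higher in heart. Without heart Sal 1 the split was 1143 against 318, and without heart control 2 it was 1144 against 463. Of the 2515 genes higher in liver under Sal, 339 had a positive difference and 74 a negative one, and of the 2545 genes higher in heart 262 and 273.

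Among the heart-typical lists the called differences were nearly all positive, that is, the gap between heart and liver was smaller under Sal. They were 8 of 23 sarcomere and Z-disc genes, 8 of 16 genes of calcium handling and 1 of 7 transcription factors. In muscle energy supply 2 of 13 were positive (PDK4 and ESRRG) and 1 was negative (ACADL). Over all genes 9.46% had a positive difference, so the counts of the last 2 lists lie near that of any genes. The median difference was 1.70 for the sarcomere list and 1.29 for calcium handling, beside 0.05 over all genes. For a list of 10 reference genes it was -1.19 (-1.27 to -0.30 with 1 library left out), with 2 members called negative. Leaving out 1 library gave 5 to 12 called sarcomere members, 5 without liver Sal 1, and 7 to 9 of calcium handling, with none negative. Markers of other cell types also had called differences, with positive differences called for 5 of 11 genes of fibroblasts, stellate cells and smooth muscle and 4 of 13 endothelial genes, with 1 endothelial gene negative. The 4 became 2 without liver Sal 1 and 6 without heart Sal 4 or liver control 4. Endothelial markers summed to 223 to 365 CPM in the Sal-exposed livers and 99.1 to 186 CPM in the control livers, with no overlap, and their part in the result was not tested. For 6 of these 19 heart-typical genes every control liver had no count, so that their fitted difference depends on the prior count. RYR2 had 0.0495 to 0.646 CPM and CASQ2 0.124 to 0.726 CPM in the Sal-exposed livers, and neither had a count in the 5 control livers. In heart RYR2 had 60.7 to 249 CPM under Sal and 227 to 349 CPM in controls, with overlap.

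Where the control livers had counts the values can be set side by side. LDB3 had 20.3 to 32.0 CPM in the Sal-exposed livers and 1.71 to 12.5 CPM in the control livers, with no overlap, while the hearts had 281 to 567 CPM and 336 to 485 CPM. Its difference of the contrast was 2.21 (SE 0.50, adjusted p = 0.00501, edgeR). ATP2A2 had 24.1 to 47.9 CPM in liver under Sal and 9.91 to 19.8 CPM in controls (difference 1.48, SE 0.34, adjusted p = 0.00537, edgeR), and ANK2 had 6.62 to 14 CPM and 1.44 to 4.04 CPM (difference 2.55, SE 0.48). For these 3 genes every Sal-exposed liver lay above every control liver. ESRRG, which did not differ between the tissues under Sal, had 4.36 to 6.18 CPM in liver under Sal and 1.59 to 2.29 CPM in controls, against 0.849 to 7.35 CPM and 6.09 to 13.0 CPM in heart (difference 2.35, SE 0.45). GJA5 had 0.260 to 1.27 CPM in liver under Sal and a count in 1 of 5 control livers (difference 3.0, SE 0.47, adjusted p = 4.09e-04, edgeR).

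In the liver-typical lists 10 members had a positive difference and 5 a negative one, of 89 tested. Over all genes the shares were 9.46% and 7%, so these counts lie near those of any genes. Plasma proteins gave 3 and 2 of 46, metabolism 6 and 3 of 34, and transcription factors 1 and 0 of 9, with median differences of 0.27, 0.76 and 0.43. F5, clotting factor V, had 704 to 1281 CPM in liver under Sal and 212 to 561 CPM in controls, and 0.455 to 3.65 CPM against 3.33 to 7.50 CPM in heart (difference 2.95, SE 0.53, adjusted p = 0.00105, edgeR). CUX2, a homeobox factor that marks female liver in mice, had 9.75 to 14.5 CPM in liver under Sal and 2.63 to 4.95 CPM in controls (difference 2.36, SE 0.33, adjusted p = 1.55e-04, edgeR). In both genes the livers of the 2 groups did not overlap. The counts in this group rested on single libraries for the metabolism list, where leaving out 1 library gave 1 to 8 positive members. The count was 1 without heart control 5, 2 without heart control 6, and 3 without heart Sal 5, liver Sal 3 or liver control 1, 5 or 6. The 3 positive plasma protein members became 1 without heart Sal 5, heart control 5 or heart control 6.

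The negative differences were those of APOA1, LCAT, VTN, PCK1 and CYP4V2. For APOA1 the tissue contrast was 4.79 in controls and 2.45 under Sal (difference -2.53, SE 0.47, adjusted p = 0.00150, edgeR), with 252 to 589 CPM in control hearts, below every Sal-exposed heart. LCAT had 2.55 to 8.38 CPM in control hearts, also below every Sal-exposed heart, and a difference of -2.74 (SE 0.38). VTN had 15 to 40.1 CPM in control hearts and 13496 to 15755 CPM in control livers (difference -2.11, SE 0.55), and with library size alone it was not called. PCK1 had 120 to 380 CPM in the control livers, above every Sal-exposed liver, at a difference of -6.23 (SE 0.98). CYP4V2, equal between the tissues under Sal, had 60.6 to 125 CPM in control livers against 31.1 to 50.5 CPM in control hearts (difference -1.16, SE 0.29), and this call was lost under 4 of the alternatives run.

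**Figure D5:**
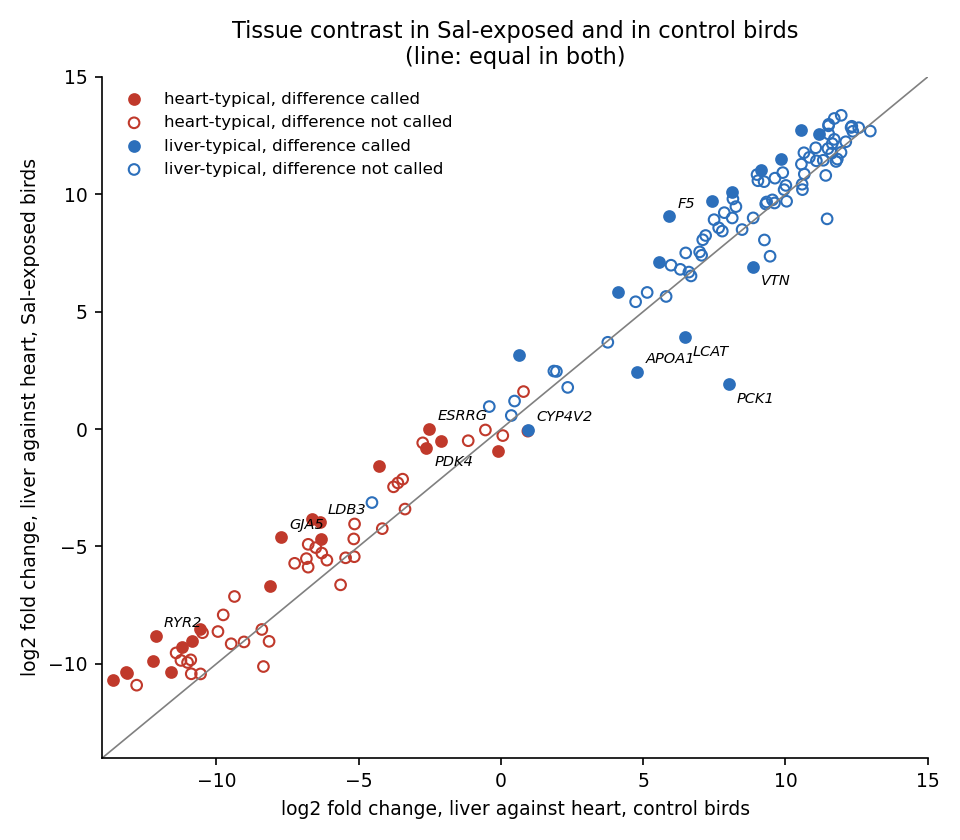
Log2 fold change of liver against heart in control birds (x axis) and in Sal-exposed birds (y axis) for 146 tissue-typical genes tested in both, with filled points where the difference was called and a line where both are equal. Heart-typical genes with a called difference lie above the line apart from ACADL, and PCK1, LCAT, APOA1, VTN and CYP4V2 lie below it.

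Markers of other cell types were measured in the same libraries, since a piece of tissue holds more than its main cell type. In bulk tissue fewer cells of a type and less RNA per cell cannot be told apart. Macrophage and lymphocyte markers were on the liver side, with 12 of 15 tested genes higher in liver and none higher in heart, and a summed level of 857 to 1655 CPM in liver against 239 to 702 CPM in heart. MARCO, a scavenger receptor of Kupffer cells, had 108 to 244 CPM in liver (median 147) and 0.343 to 0.881 CPM in heart (log2 fold change 7.78, SE 0.36, adjusted p = 1.16e-10, edgeR). CD74 and CSF1R, which are found on macrophages of most organs, had overlapping ranges and were not called, with log2 fold changes of 0.62 (SE 0.36) and 0.58 (SE 0.22).

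Endothelial markers did not all go the same way. Of 13 tested, 7 were higher in heart, 3 were higher in liver and 3 were not called. PECAM1, an adhesion molecule of most endothelium, had 33.0 to 187 CPM in heart and 12.2 to 22.2 CPM in liver (log2 fold change -2.66, SE 0.35). The 3 genes higher in liver were STAB1, STAB2 and LYVE1, receptors of sinusoidal and lymphatic endothelium, with log2 fold changes of 1.39, 5.65 and 2.34. CDH5, the cadherin of endothelial junctions, was at like levels, 27.8 to 131 CPM in heart and 58.9 to 117 CPM in liver. Of the fibroblast, stellate cell and smooth muscle markers 6 of 11 were higher in heart, LUM, a collagen-binding proteoglycan, with 54.4 to 146 CPM and 4.88 to 27.0 CPM (log2 fold change -2.73, SE 0.37), and 2 were higher in liver, RELN, a stellate cell gene in mammals, and MYH11, smooth muscle myosin, with log2 fold changes of 3.49 and 2.21.

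Further lists checked the labels and the neighbouring tissues. Of 7 bile duct markers tested, 3 were higher in liver, 1 was higher in heart and 3 were not called. EPCAM, higher in liver, had 58.1 to 86.8 CPM there against 0 to 1.27 CPM in heart (log2 fold change 6.71, SE 0.50). The marker higher in heart was KRT19, a keratin of ducts and mesothelium (log2 fold change -3.02, SE 0.54). Erythroid markers were measured because birds have nucleated red cells. Of 4 tested, only SPTB was called, higher in heart (log2 fold change -2.85, SE 0.46), and 3 were not, among them ANK1 (0.01, SE 0.42). ACTA1, the skeletal muscle actin that the heart also makes, had 222 to 1954 CPM in heart and 0.689 to 2.18 CPM in liver, while the fast skeletal muscle gene MYL1 had at most 22.1 CPM in heart and 0.198 CPM in liver. Enterocyte markers summed to 459 to 726 CPM in the Sal-exposed livers and 2184 to 19216 CPM in the control livers, a sum to which APOA4, also on the plasma protein list, gave 1922 to 18937 CPM in the control livers. Without APOA4 the sums overlapped, with 220 to 315 CPM under Sal and 260 to 6371 CPM (median 279) in controls. For 8 of 13 enterocyte markers the tissue contrast was called lower under Sal, beside 7% of all genes. Leaving out 1 library gave 3 to 12 such markers. There were 3 without liver control 1, 4 without heart Sal 1, 12 without liver control 2, and 1 with the replicate block. Their part in the differences given above was not tested.

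Genes with a chamber-typical expression in the mammalian heart did not all follow the heart label. KCNJ3, a potassium channel subunit of atrial muscle, had 16.6 to 83.9 CPM in heart and 0 to 0.0396 CPM in liver (log2 fold change -9.16, SE 0.48). Of the 5 atrial markers tested, 3 were higher in heart and 2 were higher in liver, up to a log2 fold change of 5.69. BMP10, an atrial gene in mice, was among those higher in liver. It had 2.74 to 7.23 CPM in liver and 0 to 1.00 CPM in heart (log2 fold change 3.91, SE 0.72). The heart value of 1.00 CPM was that of heart Sal 2, and the tissues did not overlap. Of the ventricular markers 5 of 6 were higher in heart and HEY2 was not called.

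Of the 16 genes of the mitochondrial genome, all tested, 13 were called higher in heart and none higher in liver, with log2 fold changes from -4.32 to -1.09 and a median of -1.87. The lowest values, -4.32 and -3.19, were those of genes without a symbol, and the genes with a symbol ran from -2.79 to -1.09. Leaving out 1 library gave 8 to 15 called genes, 8 without heart Sal 4, and library size alone gave 9. COX1, a subunit of cytochrome c oxidase, had 157688 to 536360 CPM in heart and 33125 to 153171 CPM in liver, with no overlap (log2 fold change -1.78, SE 0.56, adjusted p = 0.0123, edgeR). COX3 gave -2.0 (SE 0.45). ND4 and ND5, subunits of complex I, had wide and overlapping ranges, ND5 with 20741 to 227019 CPM in heart and 13503 to 74551 CPM in liver, and were not called (log2 fold changes -1.09, SE 0.69, and -1.36, SE 0.66). SDHA, a nuclear gene of complex II that the study used as a reference within a tissue, differed between the tissues, a comparison that does not bear on that use, with 739 to 940 CPM in heart and 157 to 232 CPM in liver (log2 fold change -2.12, SE 0.24, adjusted p = 1.58e-06, edgeR).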

How the data were processed

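Heart and liver libraries were compared from a deposited table of estimated counts per gene, which the authors made with STAR and RSEM on Turkey_5.1 with Ensembl gene models. For versions and the use of strand, the sources used here give nothing. The counts were whole numbers for 11587 genes. Of 36 columns of values, 24 matched a sample and 12 were not used. Per the file headers, the authors' tables of Sal against control hold DESeq2 log2 fold changes with their standard errors, test statistics, p-values and adjusted p-values, none of which were used. They gave gene positions and 4985 symbols. RefSeq genes of the same assembly overlapping by at least 50% gave 3509 more. A further 490 models were named after the RefSeq gene that held at least 95% of the model.

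Counts were fitted with edgeR 4.0.16 (quasi-likelihood, robust, TMM factors, filterByExpr, prior count 2) in R 4.3.3, with Benjamini-Hochberg adjustment over all genes tested. The tissue contrast used 12 libraries and its difference from control birds, the tissue by treatment term, 23. CPM are scaled by the effective library sizes of the 23. DESeq2 1.42.0, limma 3.58.1 (voom), other scalings and left-out libraries were alternatives. Depth limits precision to counting error for genes near 3 counts per library.

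Members, lists and rules were chosen with earlier results of these data known. Named genes are, per tissue-typical list, the 5 members with the highest mean CPM in their own tissue, those not called in the list's direction, and the 3 with the highest level and ratio in the other tissue. Added are the 5 largest differences and the 5 highest levels per tissue, the gene pairs, the 5 list members per direction with the smallest p for the difference, 2 genes per list of other cell types and tissue, the reference gene SDHA and genes with an outlying library. PGK1 was not analysed here. Some genes that the rule selects are not reported here, though they count among the list members. Genes named beside these are examples chosen after their values were seen.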

Additional observations from a re-analysis of the deposited data

Results flagged for a closer look

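In 30 of 238 groups of 6 libraries (12.61%), the highest or lowest library lay far from the other 5 by Dixon's criterion. About 1 of 20 groups of independent normal values would meet it. The groups here share libraries, and some genes were named for an outlying library, so the share is not read against that rate. Of the summed lists, only the tissue-typical ones were put to this criterion. Heart Sal 1 accounted for many of the 30 groups. It was highest for the summed sarcomere and Z-disc genes (100429 CPM) and the summed genes of calcium handling (3285 CPM). It was highest for the contractile genes ACTA1 (1954 CPM), MYL1 (22.1 CPM), MYL2 (33600 CPM), MYL3 (37705 CPM), MYOZ2 (4809 CPM) and TNNC1 (9650 CPM), and for the membrane proteins BVES (1283 CPM) and CAV3 (483 CPM). Among metabolic genes it was highest for ACOX2 (17 CPM), PCK1 (1.09 CPM), SLC25A4 (5298 CPM) and SLC25A6 (1598 CPM), and lowest for ACSL1 (81.9 CPM).

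The other outlying hearts were heart Sal 2 for BMP10 (1.00 CPM), heart Sal 4 for F10 (2.20 CPM) and heart Sal 5 for KRT19 (30.4 CPM). Liver Sal 4 stood out for the plasma protein genes FGA (22326 CPM), GC (7719 CPM) and TF (32816 CPM). Liver Sal 5 stood out for ANK1 (59.7 CPM), SPTB (33.4 CPM) and SPP1 (72.6 CPM). Liver Sal 1 did so for ANK2 (14 CPM), CAV3 (0.238 CPM) and MYL1 (0.198 CPM), liver Sal 3 for ASB18 (0.202 CPM) and CKMT2 (0.444 CPM), and liver Sal 6 for ATP2A2 (47.9 CPM).

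For 10 named genes the log2 fold change of liver against heart differed between Sal-exposed and control birds by edgeR's test of the tissue by treatment term. The difference, Sal-exposed minus control, was 3.24 for RYR2, 3.0 for GJA5, 2.95 for F5, 2.36 for CUX2 and 2.27 for CASQ2. It was -6.23 for PCK1, -2.74 for LCAT, -2.53 for APOA1, -2.11 for VTN and -1.16 for CYP4V2. Other named genes also had a called difference, among them LDB3, ATP2A2, ANK2 and ESRRG.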

How the results depend on the processing

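The tissue contrast gave 4768 to 5415 called genes with DESeq2, voom, library size alone, no filter on low counts, mitochondrial genes removed or a replicate block, and 4893 to 5231 with 1 library left out. A fold threshold of 4 gave 2609 (1209 higher in heart). The share higher in liver was 49.7%, and 63.1% with library size alone. For the mitochondrial share, leaving out 1 library gave liver minus heart differences of -42.2 to -34.5 percentage points (exact permutation p = 0.00216 to 0.00433). At a minimum of 10 CPM, 10 heart-typical and 9 liver-typical genes were present in the other tissue, and 25 and 23 with nuclear counts alone.

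The difference from control birds gave 1116 genes with liver control 3 included (263 negative) and 1441 to 2301 with 1 library left out. The positive share was 57.5%, and 93.4% with library size alone, 76.4% with liver control 3, 78.2% without heart Sal 1, 71.2% without heart control 2 and 70.9% without liver control 4. With the replicate block 1059 genes were called, 714 positive and 345 negative. Heart and liver share birds, but whether equal numbers mark 1 bird is not stated, and the deviations of same-numbered libraries correlated at -0.42 to 0.205, which does not settle it. Were the numbers pairs, the exact sign-flip p for the mitochondrial share would be 0.03125, the smallest 6 pairs allow, and 8 of the 16 mitochondrial genes would be called.

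Of 106 named genes in the tissue contrast, 89 had the same direction and call under every alternative run. Calls were lost under some for ATP2A3, COX2, CYTB, ND1 and PCK1 and gained for ACADL, DCN, ND5, PROX1 and SLC25A6. The log2 fold changes that changed sign were near 0. Those of ANK1 were -0.0037 with mitochondrial genes removed, -0.54 with voom, -0.15 with the block and -0.55 to 0.24 with 1 library left out. ESRRG gave -0.0016, -0.12 and, with 1 library left out, -0.20 to 0.14 for the same settings other than the block. With library size alone, voom and the block, LDHB gave 0.27, 0.26 and 0.15 (-0.26 to 0.31 with 1 library left out), and MEF2C 0.37, 0.067 and 0.065 (-0.18 to 0.14). With library size alone CYP4V2 gave 0.29 (-0.11 to 0.052 with 1 library left out) and PPARGC1A 0.043. CDH5 gave -0.022 to 0.38 with 1 library left out. The cause was not tested. For the difference, CYP4V2 was not called with library size alone (-0.64), with liver control 3 (-0.95) or without heart Sal 1 or heart control 2 (-0.99 each), nor VTN with library size alone (-1.44, edgeR adjusted p = 0.0687). Depth limits genes near 3 counts per library.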
